A study of Caenorhabditis elegans with 2 samples.

Results

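The col genes of Caenorhabditis elegans are the numbered collagen genes, most of which encode cuticle collagens. They were taken here as all protein-coding genes whose name is "col-" followed by a number in the Ensembl annotation of the WBcel235 assembly, which has the coordinates of the ce11 build. The rule gave 156 genes of 19985 protein-coding genes, with 41 on chromosome IV, 31 on V, 27 on X, 24 on II, 21 on I and 12 on III. The study mapped, in mixed-sex L1 larvae of strain OP321, the places in the genome held by the eGFP-tagged product of tlp-1, a zinc finger gene, by chromatin immunoprecipitation and sequencing (ChIP-seq). All samples carry the unc-119(tm4063) III allele and the insertion wgIs321. They form a single group of 2 biological replicates, so that no conditions were compared. The labels do not give the promoter that drives the tagged gene, and bulk chromatin from whole larvae does not tell in which cells a region was bound.

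Cuticle collagens are secreted by the epidermis, which builds a new cuticle before each moult. Their chains carry Gly-X-Y repeats, assemble into trimers and are cross-linked outside the cell into the layered, furrowed matrix that gives the worm its shape. Many are made in waves tied to the moulting cycle, and different members are used at different stages. GATA factors such as ELT-3 and nuclear receptors such as NHR-23 are known regulators of epidermal and cuticle genes in this species.

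The lists hold regions with a summit, a signal value given by the authors and no read counts. Depth is therefore unknown, and the signal of a single region has no replicate error beyond its 2 replicate values. The lists contained 28183 regions for replicate 1, 23975 for replicate 2 and 11633 for the replicates pooled, and the thresholded list kept 328 of the pooled regions. The signal differs in scale between lists, so regions were compared by rank within a list. A rank percentile is the rank divided by the length of the list, and a low one means a strong region. A region counted for a gene when its summit lay in the gene body or within 2000 bp of a transcription start site (TSS). The tagged gene tlp-1 itself had 0 regions in the 4 lists by this rule, so the libraries are called here the libraries labelled tlp-1. The gene unc-119, of which the strain carries a mutant allele, had 0 regions in the thresholded list, 5 in the pooled list, 7 in replicate 1 and 5 in replicate 2.

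One place in the family stood among the thresholded peaks, the stretch between col-117 and col-3. The genes lie head to head on chromosome IV, with col-117 at 8822962 to 8824195 on the minus strand and col-3 at 8824783 to 8826013 on the plus strand, and 587 bp between them. The peak ran from 8824333 to 8824652, and its summit at 8824493 lay 298 bp upstream of col-117 and 290 bp upstream of col-3. No other protein-coding gene was in reach. The 201 bases around the summit are shown because they hold the strongest region of the family, and those at the next strongest sites are shown for comparison with it. All are on the plus strand of ce11, and capitals mark matches to the GATA consensus (A or T, then GATA, then A or G, on either strand), the element bound by GATA-family zinc finger factors.
col-117 and col-3, chrIV:8824393-8824593: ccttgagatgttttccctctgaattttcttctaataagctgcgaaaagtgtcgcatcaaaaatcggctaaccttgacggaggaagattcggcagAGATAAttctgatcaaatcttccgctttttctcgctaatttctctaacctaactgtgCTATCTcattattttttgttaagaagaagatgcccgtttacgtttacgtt
col-107, chrIV:1547270-1547370: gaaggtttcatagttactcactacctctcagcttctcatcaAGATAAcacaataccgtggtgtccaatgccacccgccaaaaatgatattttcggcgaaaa
col-76, chrII:8205914-8206014: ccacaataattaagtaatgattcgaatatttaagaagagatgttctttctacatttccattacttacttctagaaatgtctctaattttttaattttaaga
col-92, chrIII:10983517-10983617: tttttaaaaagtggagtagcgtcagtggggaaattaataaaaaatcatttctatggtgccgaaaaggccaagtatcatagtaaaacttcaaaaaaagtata

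The stretch between col-117 and col-3 held 2 GATA matches. The first began 6 bp to the left of the summit and the second 51 bp to its right, both on these coordinates. At the upstream col-107 site a match began 9 bp to the left of the summit, with the same 6 bases in capitals as the first match between col-117 and col-3. The col-76 and col-92 windows held no match to the consensus.

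The shared peak had a signal of 54.2 in the pooled list, where it ranked 127 of 11633. In replicate 1 its signal was 24.6 and its rank 91, and in replicate 2 its signal was 29.3 and its rank 215. It thus lay within the first 1% of each replicate list, at percentiles of 0.323 and 0.897, and it was the highest-ranked region of a col gene in both. Both genes take their place in the counts from this 1 region. With each region given only to the gene with the nearest TSS, col-3 alone was counted.

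With that peak, 2 of the 156 col genes (1.28%) had a region in the thresholded list, against 1.77% of all protein-coding genes. The wider lists gave a lower share of col genes than of all genes as well. In the pooled list 48 col genes had a region (30.8%, against 40.1% of all genes), in replicate 1 it was 95 (60.9%, against 70.8%), and in replicate 2 it was 85 (54.5%, against 65.5%). The difference had the same direction in both replicates. A region in both replicate lists was found for 56 col genes (35.9%, against 52% of all genes). Col genes with a replicate 1 region that a replicate 2 region overlapped numbered 31 (19.9%, against 32.4%). No region in any list was found for 32 col genes (20.5%, against 15.6%).

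**Figure D1:**
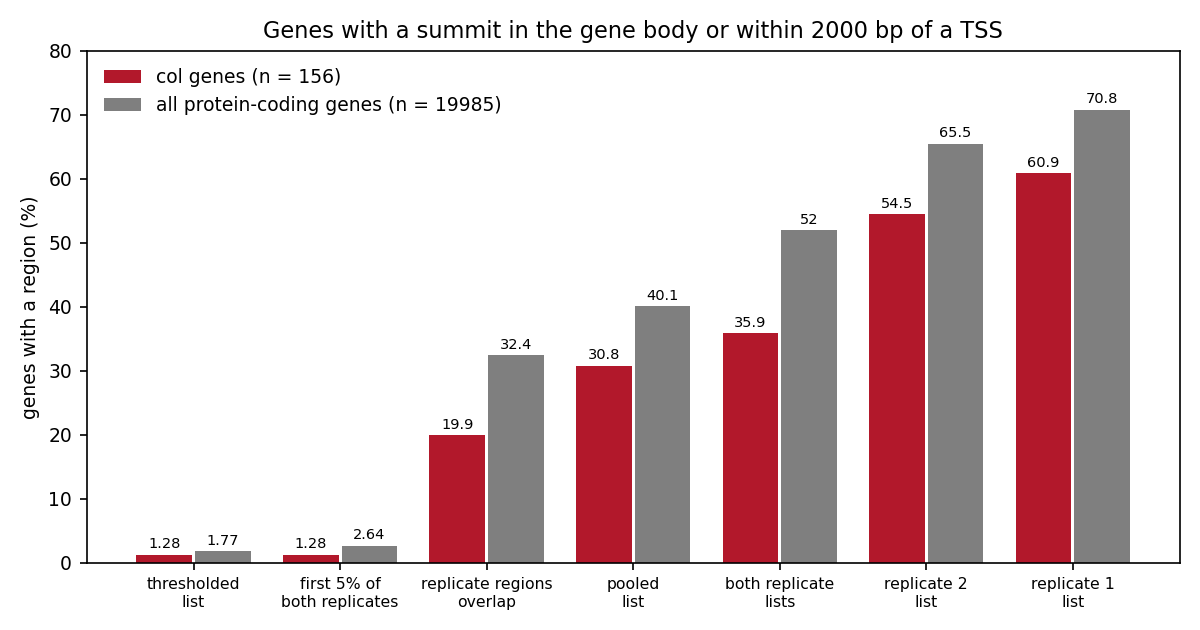
Share of genes with a region (y axis, percent) for each list or combination of lists (x axis), for the 156 col genes (red, left) and all 19985 protein-coding genes (grey, right). The col gene bar is the lower one in all 7 groups, from 1.28% against 1.77% in the thresholded list to 60.9% against 70.8% in the replicate 1 list.

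Among strong regions the counts were small. In the first 5% of the pooled list stood col-3, col-117 and col-107, which is 3 col genes (1.92%, against 3.03% of all genes). In the first 5% of replicate 1 there were 5 col genes (3.21%, against 6.92%), and in that of replicate 2 there were 7 (4.49%, against 5.94%). Only col-3 and col-117 were in the first 5% of both replicate lists (1.28%, against 2.64% of all genes). Of the pooled regions at col genes, 5 of 53 ranked within the first 1000 (9.43%), and of those at any protein-coding gene 827 of 9325 did (8.87%).

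Col genes are short, with a median length of 1220 bp against 2027 bp for all nuclear protein-coding genes, so their windows are narrower. Within 2000 bp of a TSS alone, leaving the gene body out, 47 col genes had a pooled region (30.1%, against 36.8% of all genes). Per 10 kb of merged window, the col genes had 0.872 pooled regions and all nuclear protein-coding genes 1.11. The same densities were 2.45 and 2.75 in replicate 1, and 1.88 and 2.34 in replicate 2. The density was thus lower for col genes in all 3 lists.

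The 48 col genes with a pooled region ran in best signal from 13.6 to 54.2, with a median of 15.8. For all 8023 genes with a pooled region the median of the best signal was 17.3. The median rank percentile of the best region was 57.9 for col genes and 41.7 for all genes, so the best region of a typical col gene stood lower in the list. These medians of the best region were 40.8 and 33.96 in replicate 1, and 41.7 and 34.8 in replicate 2. Taken region by region, the ranks were closer. Of the pooled regions at col genes, 9.43% ranked within the first 1000, against 8.87% of those at any protein-coding gene. From rank 1001 to 5000 the shares were 30.2% and 33.8%, and from rank 5001 on they were 60.4% and 57.4%.

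Of the 53 pooled regions, 36 were upstream of the nearest col gene (67.9%), 10 lay downstream of the gene, 5 in an intron and 1 each in the 5' UTR and the 3' UTR. The median distance from the summit to the TSS was 1222 bp, and 9 summits fell between 500 bp upstream and 200 bp downstream of the nearest col TSS. Counted by gene, 10 col genes had a pooled region in that interval (6.41%, against 12.6% of all genes). Over all pairs of a gene and a pooled summit within 2000 bp of its TSS, the summit was upstream in 38 of 55 pairs for col genes (69.1%), against 60.1% of 10201 pairs for all protein-coding genes. It lay between 500 bp upstream and 200 bp downstream in 18.2% of the pairs for col genes, against 25.8% for all genes. The median distance in these pairs was 1168 bp for col genes and 831 bp for all genes. When the gene body was kept and the window around the TSS set to 1000 or 500 bp, the pooled count of col genes was 27 or 16 (17.3% or 10.3%, against 31.4% or 26.5% of all genes). At the edge of the 2000 bp window, col-8 (1972 bp) and col-73 (1994 bp) were just inside, with signals of 15.3 and 19.8. Just outside were col-88 (2006 bp) and col-93 (2042 bp), whose nearest summits had signals of 16.8 and 26.7.

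**Figure D2:**
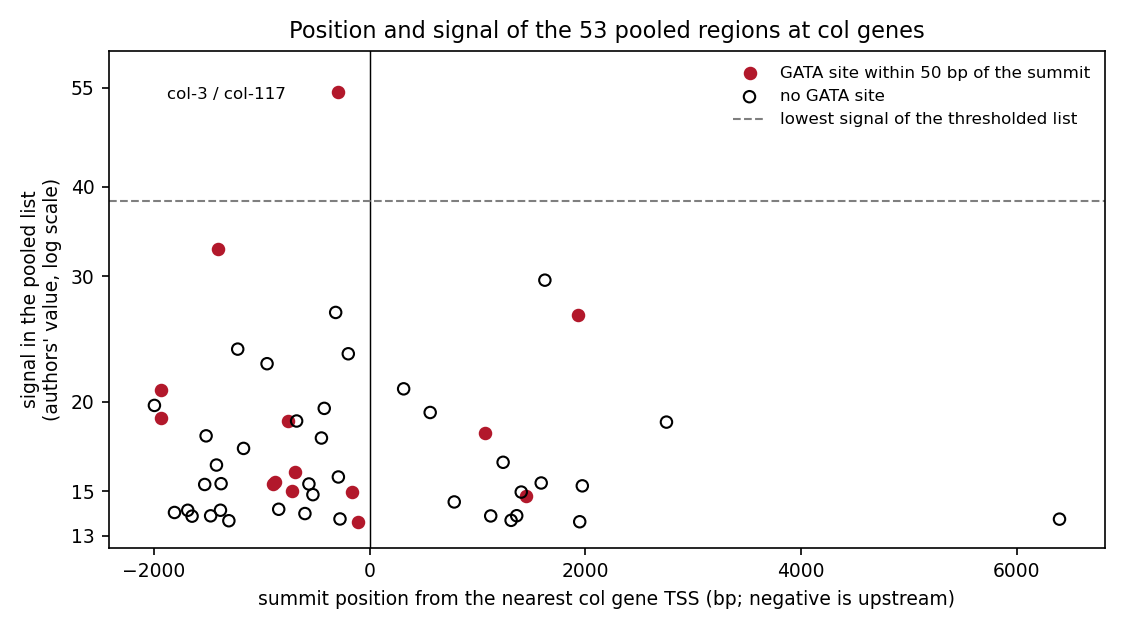
Signal in the pooled list (y axis, log scale, the authors' value) against the summit's position from the TSS of the nearest col gene (x axis, bp) for the 53 pooled regions at col genes; filled red points have a GATA site within 50 bp of the summit and open points have none. The col-3 and col-117 region, at 54.2, is the one point above the dashed line at the lowest signal of the thresholded list, 38.2.

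The neighbourhood of the regions held other genes as well. The nearest protein-coding TSS belonged to a col gene for 42 of the 53 pooled regions (79.2%), and another protein-coding gene was in reach of 30 (56.6%). The region assigned to col-73 lay 278 bp from F11G11.15, and that assigned to col-172 lay 372 bp from F38B6.4. Of the col genes with a pooled region, 41 had 1 region, 5 had 2 and 2 had 3. In all, 4 regions were in reach of more than 1 col gene, which were the region of col-117 and col-3, that of col-145 and col-10, that of col-159 and col-160, and that of col-95 and col-96. Of 29 pairs of neighbouring col genes with starts within 5000 bp of each other, 20 were in tandem, 6 convergent and 3 divergent. A pooled region at 1 or both genes was present in 13 pairs. Of the 3 divergent pairs, col-117 and col-3 were the one with a pooled region. No such count was made over neighbouring pairs of all protein-coding genes, so these counts cannot be called high or low. Gene by gene, 30.8% of col genes and 40.1% of all genes had a pooled region.

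After the shared peak, the highest signal was at col-107, on chromosome IV at 1548721 to 1549714. Its region at 1547160 to 1547479 had a signal of 32.8 in the pooled list (rank 510), 12.4 in replicate 1 (rank 1081) and 17.4 in replicate 2 (rank 1209). The summit lay 1401 bp upstream of the gene, with C34H4.5 also in reach. A second region of col-107 had its summit 163 bp upstream, a signal of 14.95 (rank 8246) and a GATA match that began 6 bp before the summit. It was overlapped by a replicate 1 region at rank 1389 and by none in replicate 2. The distant region was thus found in both replicates and the one next to the start in 1 of them.

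The region of col-76, a longer member of 3157 bp on chromosome II, lay in an intron at 8205804 to 8206123. Its signal was 29.6 in the pooled list (rank 681), 14.8 in replicate 1 (rank 506) and 14.9 in replicate 2 (rank 2251). The replicates placed it at percentiles of 1.80 and 9.39, and no other gene was in reach.

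Other strong members were carried mainly by replicate 2. The region of col-92, at chromosome III 10983407 to 10983726 and 314 bp upstream of the gene, had a pooled signal of 26.7 (rank 952). Its signal in replicate 2 was 22.9 (rank 482), and no replicate 1 region overlapped it. The region of col-83 lay past the end of the gene, with a pooled signal of 26.4 (rank 976), 6.65 in replicate 1 (rank 11092) and 19.4 in replicate 2 (rank 827). For col-10 the summits lay 1222 and 197 bp upstream, with pooled signals of 23.7 and 23.4. These 2 regions ranked 555 and 965 in replicate 2, but 3929 and 8759 in replicate 1. The col-81 region, 950 bp upstream, had a pooled signal of 22.6 and ranked 12839 in replicate 1 and 1631 in replicate 2. Replicate 1 thus gave these sites a much weaker place than replicate 2, or none.

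The reverse pattern occurred too. The col-116 region had a pooled signal of 19.3, ranked 756 in replicate 1 and was not overlapped in replicate 2. The col-101 region, 420 bp upstream, had a pooled signal of 19.6 and ranked 8086 in replicate 1, with no region in replicate 2.

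The other members among the 20 with the highest pooled signal had weaker regions. Those of col-167, col-33, col-118, col-113 and col-72 had pooled signals from 18.7 to 20.8 and were overlapped by a replicate 2 region alone. Those of col-73, col-172, col-64 and col-139 had pooled signals from 17.8 to 19.8 and were overlapped in both replicates. The col-73 region had the best ranks of these 4, 3197 in replicate 1 and 2192 in replicate 2. For the regions of col-167, col-113, col-72, col-73, col-172 and col-139, the nearest TSS was that of another gene. In that order, these genes were chtb-3, C34D4.3, W09G10.9, F11G11.15, F38B6.4 and F41F3.1.

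The intron of col-85 held a region over another kind of gene. Its summit, at chromosome II 12494779, lay within the tRNA gene WBGene00014524 (12494741 to 12494814), and the window is shown with the tRNA gene in capitals.
col-85, chrII:12494729-12494829: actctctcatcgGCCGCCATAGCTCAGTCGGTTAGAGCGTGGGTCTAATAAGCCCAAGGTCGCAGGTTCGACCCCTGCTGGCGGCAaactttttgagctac
The central 51 bases occur 22 times in the genome, and how reads from the copies were placed is not given in the sources used here. The signal was 20.9 in the pooled list (rank 2246) and 12.96 in replicate 2 (rank 3976), and no replicate 1 region overlapped it. In 52 of the 53 pooled regions at col genes the central 51 bases occur once.

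Both replicates overlapped 19 of the 53 pooled regions at col genes (35.8%), against 53.1% of the 9325 pooled regions at any protein-coding gene. Replicate 1 alone overlapped 13, and replicate 2 alone 21. Of the 95 col genes with a region in replicate 1, 58.9% had one in replicate 2, against 73.5% for all genes. Of the 85 with a region in replicate 2, 65.9% had one in replicate 1, against 79.4% for all genes. A gene is counted here even where its regions in the 2 replicates lie apart. Col genes also had a region less often in each replicate by itself. The shares were 60.9% against 70.8% in replicate 1, and 54.5% against 65.5% in replicate 2. Both replicates thus overlapped a smaller share of the pooled regions at col genes than at protein-coding genes as a whole. The part of rank in this was not tested.

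**Figure D3:**
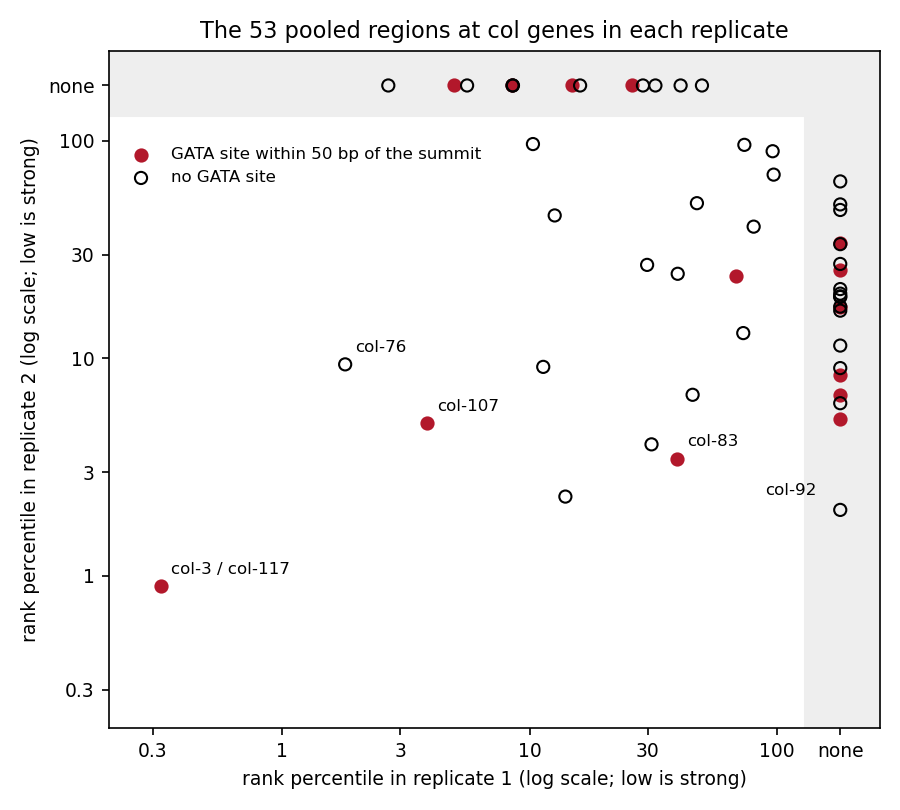
Rank percentile in replicate 1 (x axis, log scale) and replicate 2 (y axis, log scale) of the replicate region that overlaps each of the 53 pooled regions at col genes; low values are strong, the shaded bands hold regions with no overlap in that replicate, and red points have a GATA site within 50 bp of the summit. The col-3 and col-117 region stands alone at the lower left, at 0.323 and 0.897, while 34 regions lie in a shaded band.

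The family did not have the same coverage on all chromosomes. On the X chromosome 6 of 27 col genes had a pooled region (22.2%), against 50.6% of all genes there. The X shares were 66.7% against 78.7% in replicate 1, and 33.3% against 73.2% in replicate 2. On chromosome III the pooled shares were 41.7% of 12 col genes and 41.5% of all genes, but the shares were 50% against 73.4% in replicate 1 and 83.3% against 68.7% in replicate 2. On chromosome I the col share was above that of all genes in replicate 1 (76.2% against 71.1%) and replicate 2 (66.7% against 64.9%), but below it in the pooled list (28.6% against 39.7%). The replicates did not rank the chromosomes alike. On chromosome II, 33.3% of the col genes had a region in replicate 1 and 66.7% in replicate 2, while on chromosome V the shares were 77.4% and 48.4%. For all genes of chromosomes II and V, the 4 shares lay between 60.9% and 68.7%. With 12 to 41 col genes a chromosome, 1 gene moves a share by several percentage points.

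**Figure D4:**
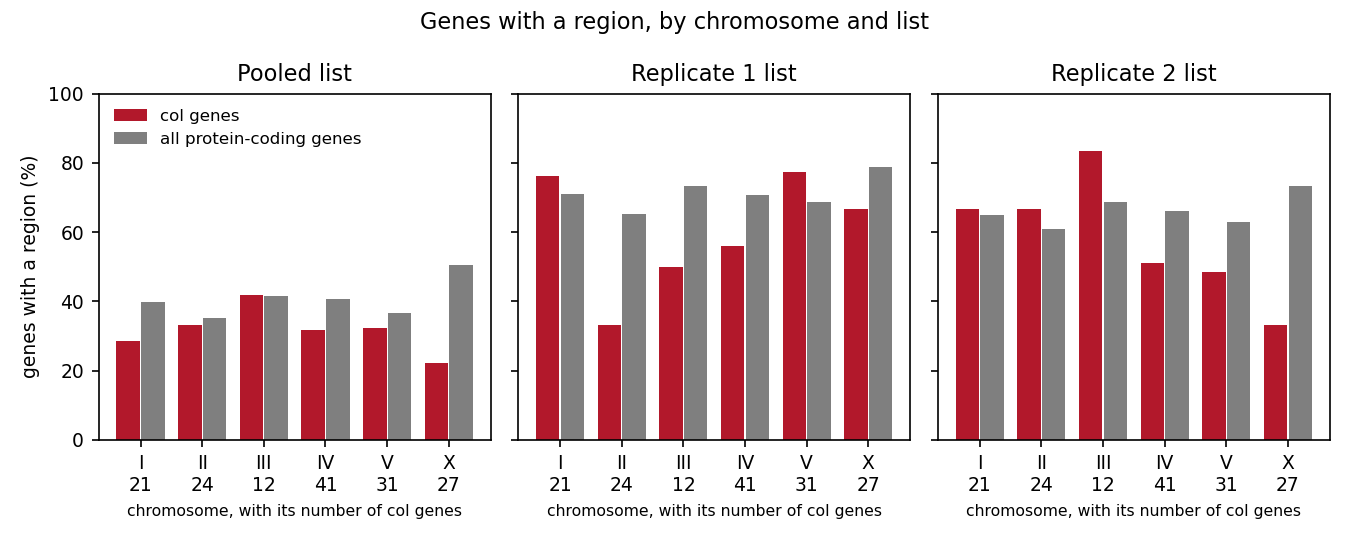
Share of genes with a region (y axis, percent) on each nuclear chromosome (x axis, with the number of col genes) for the pooled regions and for either replicate, for col genes (red, left) and all protein-coding genes of that chromosome (grey, right). On X the red bar is the lower one in all 3 panels; on II and V the red bars change places between the replicates.

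GATA sites stood at a minority of the col gene regions. Of the 53 pooled regions, 14 had the consensus no more than 50 bp from the summit (26.4%), against 32.8% of the pooled regions at any protein-coding gene. The share was 28.2% against 25% in replicate 1, and 22.8% against 26.9% in replicate 2, so that the order of the 2 sets was not the same in both replicates. By rank in the pooled list, 3 of the 5 regions within the first 1000 had a site, those of col-3 with col-117, col-107 and col-83 (60%, against 74.1% of the 827 regions at any gene). From rank 1001 to 5000 it was 4 of 16 (25%, against 34.9% of regions at any gene), and from rank 5001 on it was 7 of 32 (21.9%, against 25.2%). The extended GATA element CTTATCA occurred in 1.89% of the col gene regions, against 8.93% of the regions at any gene. At 11 of the 36 upstream regions a GATA site was present, against 3 of the 17 others. That split was not made for the pooled regions at any protein-coding gene, of which 32.8% had a site.

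The promoters of the family were searched apart from the ChIP-seq lists, from 250 bp before to 50 bp after each gene start and on both strands. A GATA consensus occurred in 97 of the 156 col promoters (62.2%), against 54.5% of all 19984 promoters of full length, and CTTATCA in 12.8% against 9.19%. The TATA element TATAAA occurred in 103 col promoters (66%, against 38%). The element TTTCACTT, known from the zinc finger factor BLMP-1, occurred in 7.69% against 4.65%. The nuclear receptor half-site AGGTCA occurred in 13.5% against 8.27%. The E-box CACGTG occurred in 1.28% against 5.81%, and the splice acceptor-like TTTTCAG in 18.6% against 31.9%. Every CTTATCA match contains a GATA match, so the promoters with CTTATCA are a part of those with the GATA consensus. Mean GC content was 37.7% in the col promoters and 34.8% in all promoters, and its part in these shares was not tested.

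**Figure D5:**
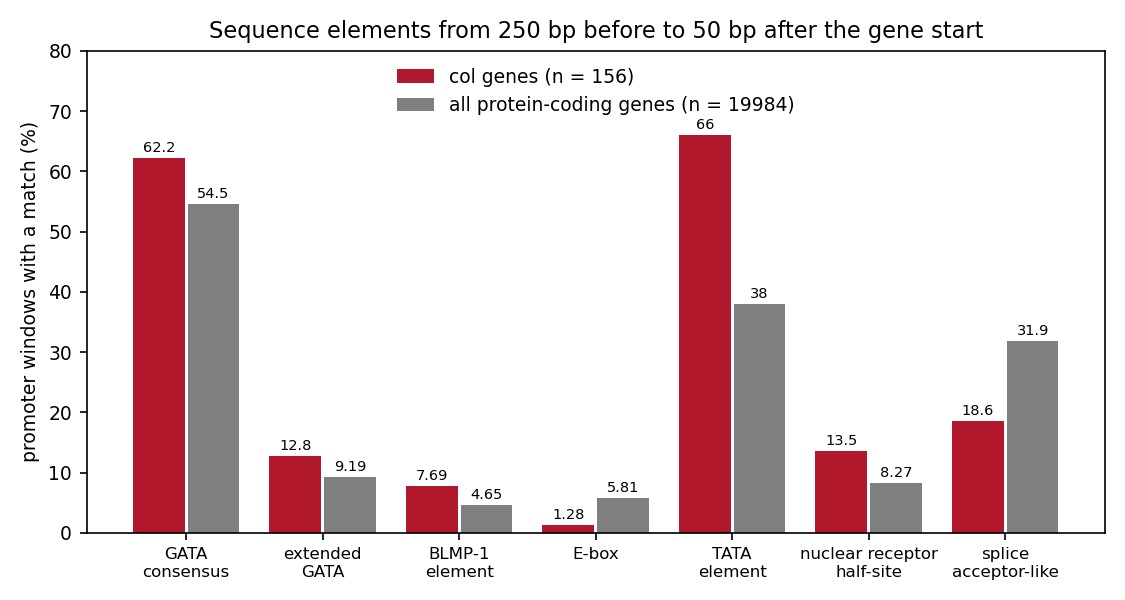
Share of promoter windows with a match (y axis, percent) for 7 sequence elements (x axis) in col genes (red, left) and all protein-coding genes (grey, right). The TATA element has the widest gap, 66% against 38%, while the E-box and the splice acceptor-like element are rarer in col promoters.

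Within the family, pooled regions were about as common with a GATA match in the promoter as without one. Of the 97 col genes with one, 30 had a pooled region (30.9%), and of the 59 without one 18 did (30.5%). The shares were 64.9% and 54.2% in replicate 1, but 51.5% and 59.3% in replicate 2. For all protein-coding genes the pooled shares were 41.2% with a promoter match and 38.9% without.

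Some col genes with no place among the 20 were looked up after their values had been seen. The adult-stage collagen gene col-19 had 1 pooled region, 599 bp upstream, with a signal of 13.96 and rank 10361. It had no region in replicate 1 and 3 in replicate 2, the best at rank 4149. The transmembrane collagen gene col-99 had 3 pooled regions, the best with a signal of 14.8 and rank 8477. Of col-12 and col-13, neighbours in tandem on chromosome V, col-12 had a pooled region with a signal of 15.7 and rank 6928, and col-13 had none. In replicate 1 the order was the reverse, with col-13 at rank 5653 and col-12 at rank 24956, and in replicate 2 col-12 ranked 11547 and col-13 had no region. Regions at near-identical copies are uncertain, because the sources used here do not say how reads that fit several places were treated.

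Genes that work with the col family were read in the same way, from lists chosen with earlier results of these data known. Of 21 other cuticle collagens (dpy, sqt, rol, lon, bli and ram genes, named for mutant phenotypes), 9 had a pooled region, 15 a replicate 1 region and 13 a replicate 2 region, and 0 were in the thresholded list. Of all protein-coding genes, 40.1% had a pooled region, 70.8% a replicate 1 region and 65.5% a replicate 2 region, and 1.77% were in the thresholded list. The furrow collagen genes dpy-3 and dpy-8 led the other cuticle collagens, with pooled signals of 21.9 and 19.6 (ranks 1877 and 2931). Both regions were upstream, with a GATA site within 50 bp of the summit. In replicate 1 dpy-3 ranked 12738 and dpy-8 had no rank, and in replicate 2 they ranked 2640 and 2108. Of 18 genes for proteins that process, fold or cross-link collagen, 9 had a pooled region, led by the cyclophilin gene cyn-5 (signal 18.97) and the disulphide isomerase gene pdi-6 (signal 18.04). Of the 3 basement membrane collagen genes, cle-1 and let-2 had one (signals 19.8 and 14.7). Of 13 epidermal and moulting regulators 10 had a pooled region, and 1, the GATA factor gene elt-3 (signal 38.4, rank 318), was in the thresholded list. The elt-3 region ranked 3878 in replicate 1 and 312 in replicate 2. The whole gene body counts by the rule, and the length of the genes in these lists was not taken into account. The pooled counts of these short lists stand against 40.1% of all genes. The median percentile of the best pooled region was 68.8 for the other cuticle collagens, 80.1 for the processing genes and 24.2 for the regulators, against 41.7 for all genes.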

How the data were processed

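Per the labels, ChIP-seq covered 2 biological replicates of whole L1 larvae. The deposited ce11 lists carry a signal per region; per the notes deposited with the libraries, the authors derived the lists from alignments. The labels name a possible control, which was not analysed here. The scale of the signal, the aligner, the peak caller and the threshold on the irreproducible discovery rate are not given in the sources used here. The 4 ce11 lists were used. The ce10 lists were not used here. Read counts are not in the lists, so depth is unknown.

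Summits were assigned to protein-coding genes of Ensembl release 115, a region counting for every gene in reach. Sequence came from the RefSeq genome of WBcel235, and promoter windows were cut from it at the annotated gene starts in place of a promoter table. Overlap means at least 1 bp. Motifs were searched on both strands. Named genes were those with a thresholded region, the 20 with the highest pooled signal, and those in the first 5% of both replicate lists. Of the other gene lists, genes with a thresholded region and otherwise the 2 with the highest pooled signal were named. The assignment, overlap and motif search were tested on simulated regions. Members and gene lists were chosen with earlier results of these data known, and no set test was made. The names ram-4 and elt-5 matched no gene. Python 3.11.15, numpy 2.4.6, pandas 2.3.3 and matplotlib 3.10.9 were used.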

Additional observations from a re-analysis of the deposited data

How the results depend on the processing

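The share of col genes with a region was below that of all protein-coding genes in 29 of 31 alternatives to the 5 counts; the exceptions were in the thresholded list, with the gene body or 500 bp of a TSS and with its upper 50% by signal, where 2 col genes stood against 1.06% and 0.896% of all genes. By the nearest TSS the thresholded count was 1 (0.641%, against 1.19% of all genes) and the count in both replicate lists 37 (23.7%, against 34.8%). The gene body or 1000 bp of a TSS gave 27 col genes in the pooled list (17.3%, against 31.4% of all genes) and 32 in both replicate lists (20.5%, against 38.7%). The gene body or 500 bp gave 16 in the pooled list (10.3%, against 26.5% of all genes) and 56 in replicate 1 (35.9%, against 50.6%). It gave 42 in replicate 2 (26.9%, against 46.2%) and 19 in both (12.2%, against 31.9%). The upper 50% of each list gave 22 in the pooled list (14.1%, against 23.4% of all genes) and 54 in replicate 1 (34.6%, against 47.1%). It gave 54 in replicate 2 (34.6%, against 42.6%) and 25 in both (16%, against 26.5%). With a replicate left out, the strongest regions of the other replicate, as many as the list replaced, were used. They gave 48 to 52 col genes for the pooled list (30.8% to 33.3%, against 41% to 41.7% of all genes). For the thresholded list they gave 2 (1.28%, against 1.78% to 1.81%). The median percentile of the best pooled region was 59.6 with TSS windows alone; in the whole list of a single replicate, which is longer, it was 40.8 to 41.7. The GATA share was 9.43% within 25 bp of the summit and 45.3% within 100 bp, against 19.7% and 48.1% of regions at any gene. It was 1.89% with CTTATCA, and 22.8% to 28.2% in the whole list of a single replicate. The promoter share was 12.8% with CTTATCA. Chosen after the data were seen, leaving out repeated sequence or col-99 each gave 47 col genes in the pooled list (30.1%, against 40.1% of all genes). Repeated sequence was left out at col genes only, and col-99 was taken out of the count but kept in the total. Both settings could thus only lower the col share, and they are among the 31 alternatives. No paired analysis was possible because the samples form 1 group. Without read counts, the depth behind a weak or missing region is unknown.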
